A study of Mus musculus with 10 samples.

Results

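The genes described here are 40 genes of fatty acid synthesis and triglyceride storage, read from raw counts of 55401 mouse genes. They were chosen by name from their known roles, with earlier results of these data known. They comprise 4 regulators, 4 enzymes that make acetyl-CoA, malonyl-CoA or palmitate, and 11 genes of elongation and desaturation. The rest are 9 genes of glycerolipid esterification, 6 genes of lipolysis and 6 genes of the lipid droplet coat. Livers of 5 wild-type littermates (WT) were compared with livers of 5 mice whose genotype label is Liver-specificTHRBKO, called Thrb-KO below. In these mice the gene of thyroid hormone receptor beta carries loxP sites and was removed by a Cre that the alpha-fetoprotein (Afp) promoter drives, a promoter of the fetal liver lineage. The strain is given as C57Bl6/J in the sample titles and as C56Bl6/J in the sample characteristics. All mice had chow and water freely, no treatment is labelled, and the age, sex and hour of collection of these mice are not given in the sources used here. In each genotype the libraries are numbered 1 to 5 and are taken as 1 mouse each.

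Hepatocytes make fatty acids from acetyl-CoA when carbohydrate is plentiful. Acetyl-CoA carboxylase makes malonyl-CoA, fatty acid synthase joins it into palmitate, elongases and desaturases reshape the chain, and the glycerol phosphate pathway esterifies it into triglyceride, which is kept in droplets coated by perilipins and CIDE proteins. The transcription factors SREBP-1c and ChREBP drive this programme after feeding, and thyroid hormone has long been known to induce several of its genes in rodent liver, of which Thrsp, also called Spot 14, is the textbook case.

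Library totals lay between 26477195 and 28590704 counts, so that 3 counts corresponded to 0.105 to 0.113 CPM, the count scaled to the size of the library. Values per mouse are normalized CPM, with library sizes corrected by TMM factors, and folds are log2 fold changes of Thrb-KO against WT with their standard error (SE), from edgeR's quasi-likelihood test on the 12234 genes that reached 1 CPM in 5 or more libraries. Thrb itself was 33.4, 34.2, 32.5, 33.5 and 32.9 CPM in WT mice 1 to 5, and 25.1, 24.9, 28.7, 25.9 and 28.8 CPM in Thrb-KO mice 1 to 5. Every Thrb-KO mouse lay below every WT mouse, by -0.32 on the log2 scale (SE 0.067, adjusted p = 0.036). These counts span the whole gene, and the deleted part is not given in the sources used here. Dio1, the hepatic deiodinase that thyroid hormone induces, fell by 3.03 on the log2 scale (SE 0.18, adjusted p = 1.3e-05).

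The libraries of Thrb-KO mice 1, 4 and 5 held transcripts of adipocytes. Adiponectin (Adipoq) had no count in any WT mouse or in Thrb-KO mouse 2, 1 count in Thrb-KO mouse 3, and 97, 215 and 146 counts in Thrb-KO mice 1, 4 and 5. Plin1 and Ucp1 were counted in these 3 libraries and in no other. Over a list of 8 adipocyte markers the summed level was 8.64 to 11.3 CPM in WT mice and 7.51 to 113 CPM in Thrb-KO mice, and Fabp4 was the 1 marker of the 2 tested that passed an adjusted p of 0.15. The other, Adrb3, had a log2 fold change of 0.04. All 6 hepatocyte markers passed the filter on low counts, none passed at 0.15, and by unadjusted p under 0.05 in edgeR there was 1, Ttr, which was higher in every Thrb-KO mouse than in every WT mouse (log2 fold change 0.30). The 6 Kupffer cell markers gave sums of 80.3 to 331 CPM in WT and 92.2 to 199 CPM in Thrb-KO mice. All 6 had lower fitted levels in Thrb-KO mice (median log2 fold change -0.79), 3 of them with an unadjusted p under 0.05 in edgeR. None of the 6 passed an adjusted p of 0.15. Of 21 tested acute-phase genes 15 were lower in Thrb-KO mice past an adjusted p of 0.15, where 2.57% of all tested genes were. All 7 stellate cell markers had higher fitted levels in Thrb-KO mice, with sums of 83.4 to 127 CPM in WT and 114 to 136 CPM in Thrb-KO mice. Of these Des passed (log2 fold change 0.67, adjusted p = 0.057) and was higher in every Thrb-KO mouse than in every WT mouse. The 6 endothelial markers summed to 131 to 157 CPM in WT and 140 to 180 CPM in Thrb-KO mice and the 5 cholangiocyte markers to 24.6 to 46.4 and 24.0 to 28.6 CPM. In edgeR no gene of either list passed at 0.15. The unadjusted p was under 0.05 for 3 of 6 tested endothelial markers, 2 higher and 1 lower in Thrb-KO mice. It was under 0.05 for 2 of 3 tested cholangiocyte markers, each of them lower. Over all tested genes it was under 0.05 for 13.6%. Without Thrb-KO mice 1, 4 and 5 the change of Thrb was -0.30 (adjusted p = 0.24). Counts below are therefore also given without Thrb-KO mice 1, 4 and 5, a choice made after these markers had been seen, which leaves 2 Thrb-KO mice. Beyond these values, the part of acute-phase transcripts and of transcripts of adipocytes, Kupffer, stellate and endothelial cells and cholangiocytes in the results was not tested. In whole liver, fewer cells of a type and less RNA per cell cannot be told apart.

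Of the 40 genes, 38 passed the filter on low counts, and Cidea and Mogat1 did not. At an adjusted p of 0.15, 6 of these 38 genes (15.8%) differed between genotypes, where 4.08% of all tested genes did. The genes were chosen with earlier results known, so these shares are set side by side without a test. Plin4, Cidec, Lpin2 and Pnpla2 rose and Srebf1 and Lpin3 fell, against 1.51% of all tested genes that rose and 2.57% that fell. At an adjusted p of 0.05 only Lpin3 remained, where 1.35% of all tested genes passed. The median log2 fold change over the 38 genes was 0.05, with 22 genes above 0 and 16 below, and over all tested genes it was 0.0005. All Thrb-KO mice lay above all WT mice for Plin4 and Cidec and below them for Lpin3, and genotypes were apart in this way in 3.64% of all tested genes. Without Thrb-KO mice 1, 4 and 5, 2 of 37 genes passed an adjusted p of 0.15, namely G0s2 and Lpin2, where 1.45% of all tested genes passed. With the summed adipocyte marker level as a covariate, or with a component of acute-phase genes, none of the 38 passed in edgeR. By unadjusted p under 0.05, 10 of the 38 were below it with the adipocyte covariate, where 9.63% of all tested genes were, and 2 with the acute-phase component, where 3.45% were, against 13 of the 38 and 13.6% without either. With the adipocyte covariate the log2 fold changes of the 6 genes were 0.99 for Plin4, 0.62 for Cidec, 0.68 for Lpin2, 0.39 for Pnpla2, -1.004 for Srebf1 and -0.48 for Lpin3. With the acute-phase component they were 1.44, 0.51, 0.54, 0.23, -0.22 and -0.34 in the same order. This component was higher in every Thrb-KO mouse (0.15 to 1.4) than in every WT mouse (-1.51 to 0.088). In that fit genotype and acute-phase level therefore cannot be told apart. The count of 6 also fell to 1 without WT mouse 2 (Lpin3) and to 2 without WT mouse 5 (Lpin3 and Srebf1). Without Thrb-KO mouse 3 it fell to 3 (Plin4, Cidec and Lpin3). Over all tested genes the 499 calls fell in the same fits, to 227 of 12153, 239 of 12154 and 222 of 12167 in that order.

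**Figure D1:**
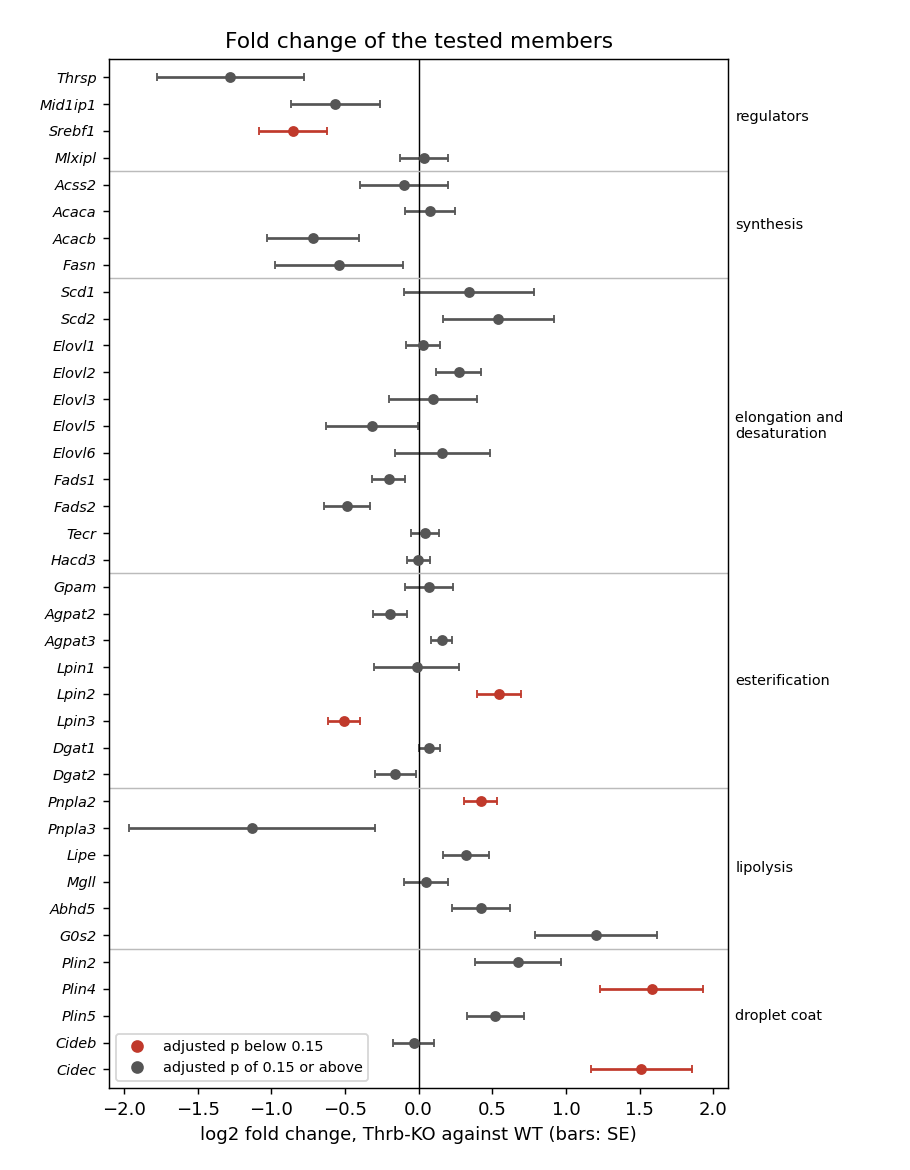
Log2 fold change of Thrb-KO against WT with its standard error for the 38 tested genes, ordered by role, from edgeR on 5 mice per genotype. The 6 genes past an adjusted p of 0.15 are red, and the droplet coat genes Plin4 (1.58) and Cidec (1.51) lie farthest to the right while Thrsp (-1.28) lies farthest to the left without passing the test.

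The regulators were led by Srebf1, which encodes the SREBP-1 proteins and stood at 341, 533, 383, 315 and 764 CPM in WT mice 1 to 5 and at 283, 241, 213, 241 and 315 CPM in Thrb-KO mice 1 to 5. The lowest WT mouse and the highest Thrb-KO mouse had about the same level and all other mice were apart. Srebf1 fell by 0.85 on the log2 scale (SE 0.23, adjusted p = 0.10), to 0.554 times the WT level. Without WT mouse 5 its fold change was -0.60 (adjusted p = 0.148), and without Thrb-KO mice 1, 4 and 5 it was -1.03 (adjusted p = 0.32). With the acute-phase component, which separates the genotypes by itself, it was -0.22 (adjusted p = 0.9997). Its counts cover both SREBP-1a and SREBP-1c, which share most exons.

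Thrsp, a small protein that favours fatty acid synthesis, measured 381, 440, 551, 515 and 1900 CPM in WT mice 1 to 5. In Thrb-KO mice 1 to 5 it measured 151, 398, 282, 243 and 487 CPM. Thrb-KO mice 2 and 5 were inside the WT range and the other 3 below it. Its log2 fold change of -1.28 (SE 0.50) did not pass the test (adjusted p = 0.30), and it was -0.60 without WT mouse 5, whose level was above 3 times that of any other WT mouse. Thrsp passed in 2 of 19 alternative analyses, 1 of them with a covariate built from clock genes (log2 fold change -0.96, adjusted p = 0.036). On that covariate WT mouse 5 had the lowest value of all mice (-1.68).

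Mid1ip1, the partner of Thrsp that promotes the assembly of acetyl-CoA carboxylase, measured 64.0, 77.4, 48.6, 74.3 and 146 CPM in WT and 39.7, 55.8, 46.8, 86.4 and 48.3 CPM in Thrb-KO mice. In Thrb-KO mice, 4 of the 5 levels were below the WT median, with a log2 fold change of -0.57 (SE 0.30, adjusted p = 0.46) that was -0.25 without WT mouse 5. An antisense gene covers 25.5% of its exon length, and reads were counted without strand, so the count is uncertain. Mlxipl, which encodes ChREBP, gave 301, 231, 402, 287 and 400 CPM in WT and 431, 290, 332, 306 and 303 CPM in Thrb-KO mice. The genotypes overlapped almost completely (log2 fold change 0.04, SE 0.16).

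**Figure D2:**
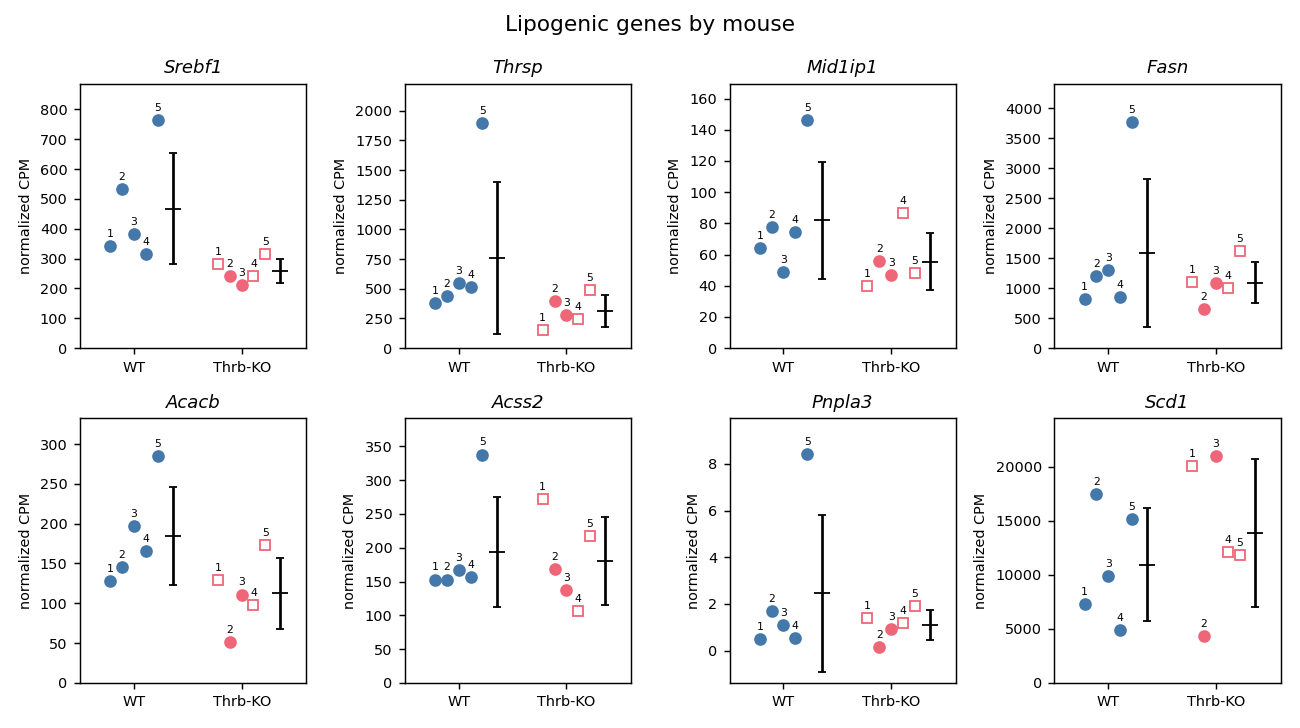
Normalized CPM in each mouse for 8 lipogenic genes, with mouse numbers beside the points, open squares for the Thrb-KO libraries with adipocyte transcripts, and the mean ± SD of 5 mice as a bar. WT mouse 5 is the highest WT mouse for every gene shown but Scd1, with 1900 CPM for Thrsp and 3766 CPM for Fasn.

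None of the 4 enzymes that make acetyl-CoA, malonyl-CoA or palmitate passed edgeR's test at an adjusted p of 0.15, and DESeq2 called none. In edgeR 1, Acacb, had an unadjusted p under 0.05, where 13.6% of all tested genes did. Fasn, fatty acid synthase, measured 821, 1207, 1302, 848 and 3766 CPM in WT mice 1 to 5 and 1099, 652, 1084, 1009 and 1616 CPM in Thrb-KO mice 1 to 5. WT mouse 5 stood far above the rest, and the other mice of both genotypes shared a range. Its log2 fold change was -0.54 (SE 0.43, adjusted p = 0.64) and turned to 0.07 without WT mouse 5. Acaca, the cytosolic acetyl-CoA carboxylase, measured 174, 187, 276, 155 and 256 CPM in WT and 206, 173, 218, 233 and 275 CPM in Thrb-KO mice, with a log2 fold change of 0.08 (SE 0.17). Acacb, the mitochondrial carboxylase whose product restrains fatty acid oxidation, measured 128, 146, 197, 166 and 285 CPM in WT and 129, 51.3, 111, 97.3 and 173 CPM in Thrb-KO mice. Thrb-KO mice 2, 3 and 4 were below every WT mouse, and the log2 fold change of -0.71 (SE 0.31) had an adjusted p of 0.35. Acss2, which makes acetyl-CoA from acetate, measured 153 to 167 CPM in WT mice 1 to 4, 338 CPM in WT mouse 5 and 107 to 272 CPM in Thrb-KO mice, and its log2 fold change of -0.10 (SE 0.30) turned to 0.20 without WT mouse 5.

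The 11 genes of elongation and desaturation held no gene past an adjusted p of 0.15 in edgeR, with log2 fold changes between -0.49 and 0.54 and a median of 0.04. In edgeR 1 of them, Fads2, had an unadjusted p under 0.05, where 13.6% of all tested genes did, and DESeq2 called it. Scd1, the desaturase that makes oleate and palmitoleate, was the most abundant of all 40 genes per kilobase of exon, at 2238 CPM per kb in WT and 2839 CPM per kb in Thrb-KO mice. It measured 7342, 17448, 9934, 4865 and 15142 CPM in WT and 20107, 4334, 21024, 12114 and 11868 CPM in Thrb-KO mice. The lowest and the highest of all 10 mice were both Thrb-KO, and the log2 fold change of 0.34 had an SE of 0.44. Scd2, its paralogue, was near 3.22 to 15.4 CPM in all mice, highest in Thrb-KO mouse 1. Its log2 fold change was 0.54 (SE 0.38) over all mice and -0.39 without Thrb-KO mice 1, 4 and 5. Reads shared by both desaturases were not counted.

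Fads2, the delta-6 desaturase of polyunsaturated fatty acids, came nearest to the threshold in this group (log2 fold change -0.49, SE 0.16, adjusted p = 0.17). It ranged from 720 to 1272 CPM in WT, with a median of 846, and from 539 to 752 CPM in Thrb-KO mice, with a median of 645. It passed in 5 of 19 alternative analyses, DESeq2 among them (adjusted p = 0.053). Its neighbour Fads1, the delta-5 desaturase, averaged 635 ± 72.9 CPM in WT and 551 ± 69.9 CPM in Thrb-KO mice (SD, n = 5 each, log2 fold change -0.20).

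Elovl6, which extends palmitate to stearate, measured 144, 145, 275, 101 and 334 CPM in WT and 156, 252, 237, 178 and 293 CPM in Thrb-KO mice, a spread within each genotype wider than the log2 fold change of 0.16 (SE 0.33). Elovl5, which extends polyunsaturated chains, averaged 379 ± 130 CPM in WT and 304 ± 133 CPM in Thrb-KO mice (log2 fold change -0.32, SE 0.31). Elovl2, of the very long polyunsaturated chains, averaged 529 ± 110 CPM and 639 ± 102 CPM (log2 fold change 0.27, SE 0.15), and Elovl3 averaged 107 ± 39.1 CPM and 115 ± 29.7 CPM (SD, n = 5 each). Elovl1, Tecr and Hacd3, which serve elongation in most tissues, had log2 fold changes of 0.03, 0.04 and -0.002 with SEs of 0.11, 0.096 and 0.079. For Hacd3 all 10 mice lay between 184 and 228 CPM.

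**Figure D3:**
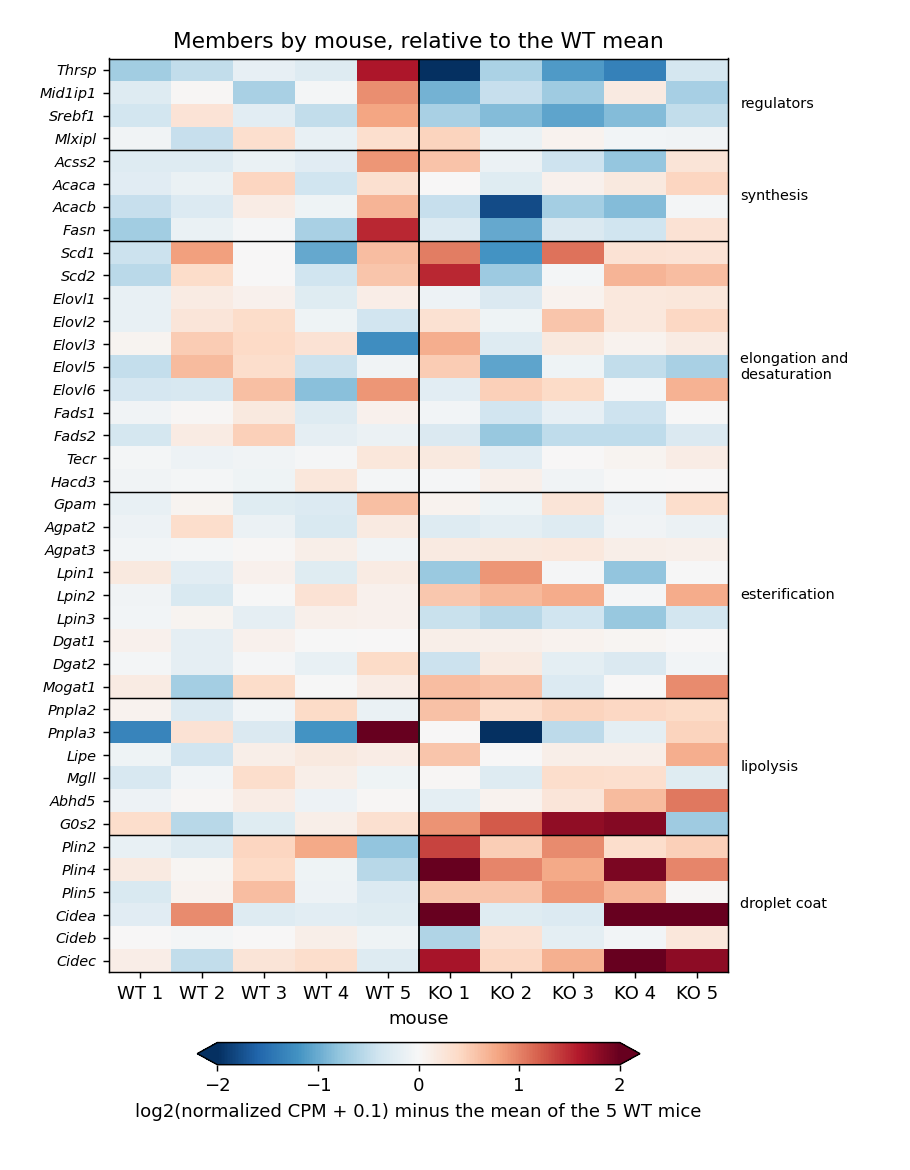
Log2 normalized CPM (0.1 added) of all 40 genes in each mouse, as the difference from the mean of the 5 WT mice, with colours ending at 2 in either direction and genes grouped by role. WT mouse 5 is red for Thrsp, Fasn and Pnpla3, and Cidea is deep red in Thrb-KO mice 1, 4 and 5, the mice that also held Adipoq counts.

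Esterification turned on the lipins, the phosphatidate phosphatases that make diacylglycerol and also act as nuclear cofactors. Lpin2 rose in Thrb-KO mice. It measured 232, 198, 243, 297 and 260 CPM in WT and 356, 384, 409, 239 and 407 CPM in Thrb-KO mice. Only Thrb-KO mouse 4 lay inside the WT range. Its log2 fold change was 0.55 (SE 0.15, adjusted p = 0.10) and 0.70 without Thrb-KO mice 1, 4 and 5 (adjusted p = 0.11). Lpin3, the least abundant lipin, measured 7.19, 7.76, 6.58, 8.05 and 7.90 CPM in WT and 5.49, 5.06, 5.63, 4.40 and 5.76 CPM in Thrb-KO mice. No Thrb-KO mouse reached the lowest WT mouse, and Lpin3 fell by 0.51 on the log2 scale (SE 0.11, adjusted p = 0.042). Without Thrb-KO mice 1, 4 and 5 the change was -0.48 (adjusted p = 0.24). Lpin1, the lipin induced by fasting, averaged 252 ± 35.0 CPM in WT and 250 ± 128 CPM in Thrb-KO mice (SD, n = 5 each), and Thrb-KO mouse 2 was the highest of all at 461 CPM. Per kilobase of exon, WT livers held 26.1 CPM of Lpin1, 20.1 of Lpin2 and 2.03 of Lpin3, and Thrb-KO livers 25.9, 29.4 and 1.43.

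The lipins are paralogues of which 1 rose and 1 fell, so the 250 bases before an annotated start of each are shown, from RefSeq on GRCm38.p6 and written 5′ to 3′ on the strand of the gene. Capitals mark CACGTG, the E-box that many basic helix-loop-helix factors including ChREBP and SREBP can bind, and AGGTCA, the element that many nuclear receptors bind, each searched on both strands. The stretch of Lpin1 lies at chr12:16610967-16611216 on the minus strand, that of Lpin2 at chr17:71183282-71183531 on the plus strand and that of Lpin3 at chr2:160880420-160880669 on the plus strand.
Lpin1: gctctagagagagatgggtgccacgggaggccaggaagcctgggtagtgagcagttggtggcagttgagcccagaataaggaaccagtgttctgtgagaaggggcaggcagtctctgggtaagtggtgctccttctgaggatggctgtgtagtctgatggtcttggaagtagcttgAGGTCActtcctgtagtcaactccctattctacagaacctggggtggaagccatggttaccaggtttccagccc
Lpin2: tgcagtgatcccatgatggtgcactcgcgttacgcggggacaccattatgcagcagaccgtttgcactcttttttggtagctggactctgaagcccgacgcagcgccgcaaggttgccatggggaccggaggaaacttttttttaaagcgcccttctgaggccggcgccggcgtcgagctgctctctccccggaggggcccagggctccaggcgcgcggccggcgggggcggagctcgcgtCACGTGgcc
Lpin3: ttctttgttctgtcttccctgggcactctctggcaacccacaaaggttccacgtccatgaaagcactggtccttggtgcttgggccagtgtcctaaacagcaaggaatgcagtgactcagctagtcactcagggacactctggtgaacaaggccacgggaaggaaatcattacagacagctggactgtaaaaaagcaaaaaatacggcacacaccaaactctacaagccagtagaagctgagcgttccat
Lpin1 held AGGTCA with its first base 74 bases before the start, and Lpin2 held CACGTG 9 bases before it. The stretch shown of Lpin3 held neither, and its CACGTG began at base 23 after an annotated start. Lpin2 and Lpin3 have other annotated starts, and the 250 bases before those held neither element. Of 32851 RefSeq windows from 250 bases before to 50 after a start, 7.15% held CACGTG and 16.3% held AGGTCA. Windows were found for 33 of the 40 genes, 46 windows in all. Of these 46 windows 8 held CACGTG, in 8 genes (Elovl5, Hacd3, Lipe, Lpin2, Lpin3, Mgll, Mlxipl and Plin2). AGGTCA was in 9 of the 46 windows, in 8 genes (Abhd5, Acacb, Elovl1, Elovl6, Gpam, Lpin1, Plin2 and Plin5). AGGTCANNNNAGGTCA, the direct repeat spaced by 4 bases that thyroid hormone receptors can bind, which contains AGGTCA, was in none of the 46 windows and in 5 of the 32851.

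The acyltransferases of the pathway did not pass the test. Gpam, the mitochondrial glycerol-3-phosphate acyltransferase, measured 233, 267, 218, 212 and 391 CPM in WT and 271, 241, 309, 240 and 327 CPM in Thrb-KO mice (log2 fold change 0.07, SE 0.17). Dgat1 and Dgat2 add the last acyl chain of triglyceride. Dgat1 was among the steadiest genes, at 23.6, 19.5, 23.4, 22.1 and 22.2 CPM in WT and 24.1, 23.8, 23.3, 22.8 and 22.3 CPM in Thrb-KO mice (log2 fold change 0.07, SE 0.071). Dgat2 measured 741, 668, 744, 686 and 989 CPM in WT and 565, 855, 659, 622 and 729 CPM in Thrb-KO mice (log2 fold change -0.16, SE 0.14). Per kilobase of exon Dgat2 was the more abundant, at 248 CPM per kb against 7.25 in WT mice.

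Agpat2 and Agpat3 acylate lysophosphatidate. Agpat2 averaged 230 ± 42.5 CPM in WT and 201 ± 11.8 CPM in Thrb-KO mice (log2 fold change -0.20, SE 0.12), and Agpat3 averaged 236 ± 12.7 CPM and 264 ± 9.30 CPM (SD, n = 5 each, log2 fold change 0.16, SE 0.071, adjusted p = 0.36). Agpat3 had the smallest spread between mice of the 38 genes, and DESeq2 called it (adjusted p = 0.094). Mogat1, the monoacylglycerol acyltransferase linked to hepatic steatosis, was counted 6 to 15 times in WT libraries and 9 to 24 times in Thrb-KO libraries, below the filter, and 12.8% of its exon length overlaps a gene on the other strand.

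Lipolysis gave 1 gene past the test. Pnpla2, the adipose triglyceride lipase that removes the first acyl chain, measured 111, 87.0, 102, 138 and 96.5 CPM in WT and 159, 135, 144, 141 and 138 CPM in Thrb-KO mice. Only WT mouse 4 reached the level of the Thrb-KO mice. Pnpla2 rose by 0.42 on the log2 scale (SE 0.11, adjusted p = 0.093), and the value was 0.39 (adjusted p = 0.38) without Thrb-KO mice 1, 4 and 5. G0s2, the inhibitor of that lipase, measured 26.9, 14.2, 17.8, 22.7 and 26.2 CPM in WT and 39.2, 49.3, 72.2, 74.9 and 12.7 CPM in Thrb-KO mice. Thrb-KO mouse 5 was the lowest of all 10 mice, while the other 4 were above every WT mouse. The log2 fold change of 1.20 (SE 0.41) did not pass (adjusted p = 0.24). Without Thrb-KO mice 1, 4 and 5 it was 1.504 (adjusted p = 0.086), and without Thrb-KO mouse 5 alone 1.45 (adjusted p = 0.025).

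Abhd5, the activator of Pnpla2, averaged 24.0 ± 1.80 CPM in WT and 32.2 ± 11.4 CPM in Thrb-KO mice (SD, n = 5 each, log2 fold change 0.42, SE 0.20, adjusted p = 0.38), with 37.1 and 49.6 CPM in Thrb-KO mice 4 and 5 and 20.9 to 28.3 CPM in the other 3. Lipe, hormone-sensitive lipase, averaged 12.9 ± 2.02 CPM and 16.1 ± 3.68 CPM (SD, n = 5 each), with a log2 fold change of 0.32 that was 0.05 without Thrb-KO mice 1, 4 and 5. Antisense genes cover 16.0% of the exon length of Abhd5 and 15.6% of that of Lipe. Mgll, which splits monoacylglycerol, averaged 176 ± 31.2 CPM in WT and 182 ± 36.6 CPM in Thrb-KO mice (SD, n = 5 each). Pnpla3, a droplet lipase known from inherited steatosis in people, measured 0.492, 1.71, 1.11, 0.547 and 8.42 CPM in WT and 1.39, 0.15, 0.926, 1.19 and 1.91 CPM in Thrb-KO mice. WT mouse 5 again stood alone, and the log2 fold change of -1.13 (SE 0.84) was 0.20 without it.

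Among those of the 40 genes past the test over all 10 mice, the droplet coat genes Plin4 and Cidec had the largest log2 fold changes. Plin4, a perilipin of small droplets, rose from 3.86, 3.50, 4.5, 3.20 and 2.28 CPM in WT mice 1 to 5 to 19.8, 6.75, 5.80, 12.8 and 6.79 CPM in Thrb-KO mice 1 to 5. The log2 fold change was 1.58 (SE 0.35, adjusted p = 0.063), a 2.99-fold difference. Cidec, which fuses droplets and is also called FSP27, rose from 4.01, 2.55, 4.36, 4.69 and 3.03 CPM to 11.6, 4.87, 6.0, 17.8 and 12.8 CPM (log2 fold change 1.51, SE 0.34, adjusted p = 0.065). Both genes are also abundant in adipocytes. The 3 highest Cidec levels and the 2 highest Plin4 levels were in libraries with adipocyte transcripts. Thrb-KO mice 2 and 3 had Plin4 and Cidec levels above every WT mouse. Thrb-KO mouse 3 held 1 count of Adipoq and 3 of Cfd, an adipocyte marker with 0 to 3 counts in WT libraries, and its summed marker level of 7.51 CPM was below that of every WT mouse. In WT mice and in Thrb-KO mice 2 and 3 this sum was almost all Fabp4 and Adrb3. In Thrb-KO mouse 3 Adrb3 was 2.2 CPM against 4.4 to 6.95 CPM in WT mice, while Fabp4 lay inside the WT range. Thrb-KO mouse 2 held no Adipoq but 15 counts of Cfd, and its sum of 12.4 CPM was above the highest WT sum of 11.3 CPM. With these 2 mice alone the log2 fold changes were 0.86 for Plin4 (SE 0.23, adjusted p = 0.20) and 0.55 for Cidec (SE 0.24, adjusted p = 0.42).

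Cidea, a CIDE protein of brown adipocytes and fatty liver, had 1 count in each of 4 WT libraries and 6 counts in WT mouse 2. Among Thrb-KO mice it had 81, 1, 1, 75 and 265 counts in mice 1 to 5, so that all counts above 6 fell in the libraries with adipocyte transcripts. Fabp4, the fatty acid carrier of adipocytes and macrophages, was likewise highest in these 3 libraries, with 3.67 to 5.40 CPM in WT mice, 5.18 and 7.69 CPM in Thrb-KO mice 3 and 2 and 21.9 to 40.5 CPM in the other 3.

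**Figure D4:**
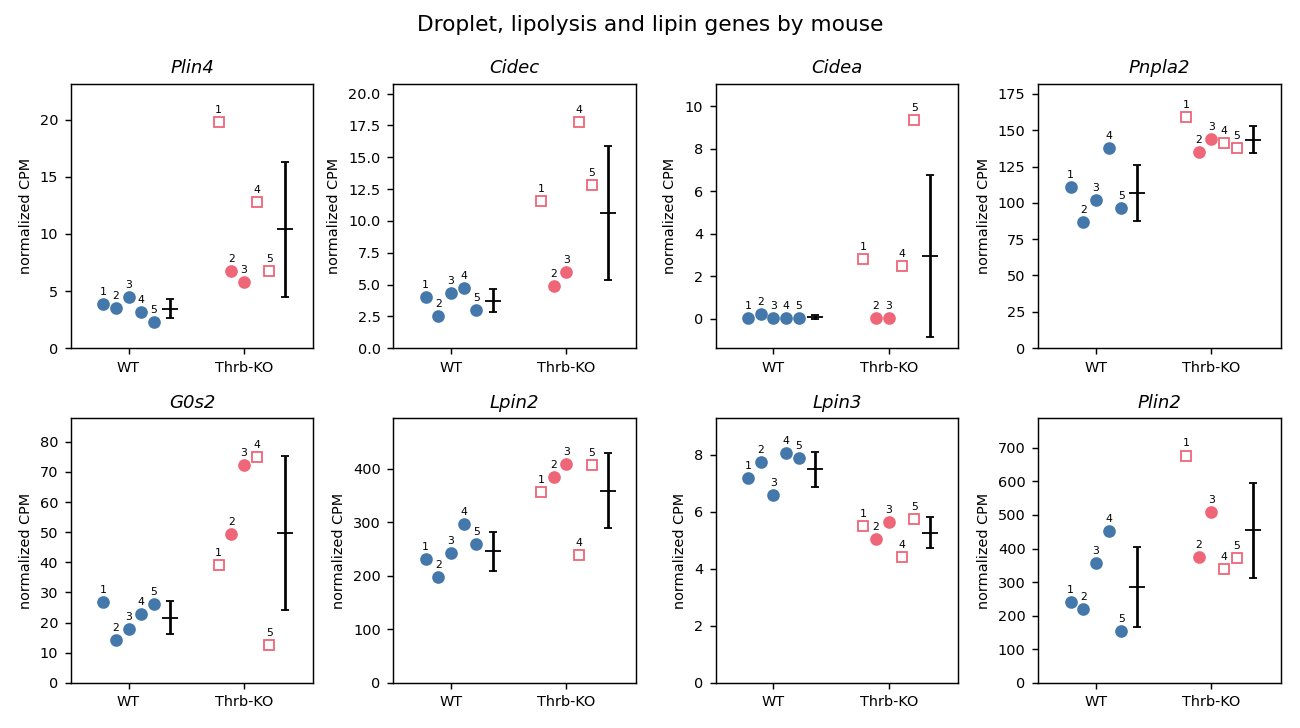
Normalized CPM in each mouse for droplet, lipolysis and lipin genes, with mouse numbers beside the points, open squares for the Thrb-KO libraries with adipocyte transcripts (mice 1, 4 and 5), and the mean ± SD of 5 mice as a bar. Cidea is raised only in the open squares, Cidec is highest there, and Lpin3 is below the WT mice in all 5 Thrb-KO mice.

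Of the 40 genes, Plin4 and Cidec had the largest rises past the test over all 10 mice. Their starts are shown in the same way, Plin4 at chr17:56109783-56110032 and Cidec at chr6:113435761-113436010, both on the minus strand. Neither stretch held CACGTG or AGGTCA.
Plin4: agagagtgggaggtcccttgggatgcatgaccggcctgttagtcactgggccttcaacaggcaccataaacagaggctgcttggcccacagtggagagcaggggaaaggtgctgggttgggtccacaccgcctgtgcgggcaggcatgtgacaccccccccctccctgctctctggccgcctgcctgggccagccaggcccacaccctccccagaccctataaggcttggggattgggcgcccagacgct
Cidec: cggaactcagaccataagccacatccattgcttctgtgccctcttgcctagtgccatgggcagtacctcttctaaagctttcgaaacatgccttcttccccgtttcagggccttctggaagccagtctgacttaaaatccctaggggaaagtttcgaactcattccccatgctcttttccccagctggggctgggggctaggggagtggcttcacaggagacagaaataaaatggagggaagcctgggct

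Plin2, the main perilipin of hepatocytes, measured 240, 221, 358, 451 and 154 CPM in WT and 677, 374, 510, 339 and 371 CPM in Thrb-KO mice. WT mice 3 and 4 lay inside the Thrb-KO range and the other 3 below it, with a log2 fold change of 0.67 (SE 0.29, adjusted p = 0.35) and of 0.64 without Thrb-KO mice 1, 4 and 5. Plin5, which ties droplets to mitochondria, averaged 30.1 ± 8.82 CPM in WT and 43.2 ± 8.73 CPM in Thrb-KO mice (SD, n = 5 each). Its log2 fold change of 0.52 (SE 0.19, adjusted p = 0.27) passed in 4 of 19 alternative analyses and was 0.68 without Thrb-KO mice 1, 4 and 5. Cideb, the CIDE protein of hepatocytes needed to lipidate lipoproteins, averaged 38.9 ± 2.03 CPM and 38.0 ± 8.93 CPM (SD, n = 5 each), and 76.3% of its exon length is shared with Nop9 on the other strand, so its count is uncertain. By unadjusted p values in edgeR, 4 of the 5 tested droplet coat genes were higher in Thrb-KO mice at 0.05, where 6.15% of all tested genes were. This count includes the libraries with adipocyte transcripts. Without Thrb-KO mice 1, 4 and 5 no droplet coat gene passed an adjusted p of 0.15 in edgeR, where 1.45% of all tested genes did.

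**Figure D5:**
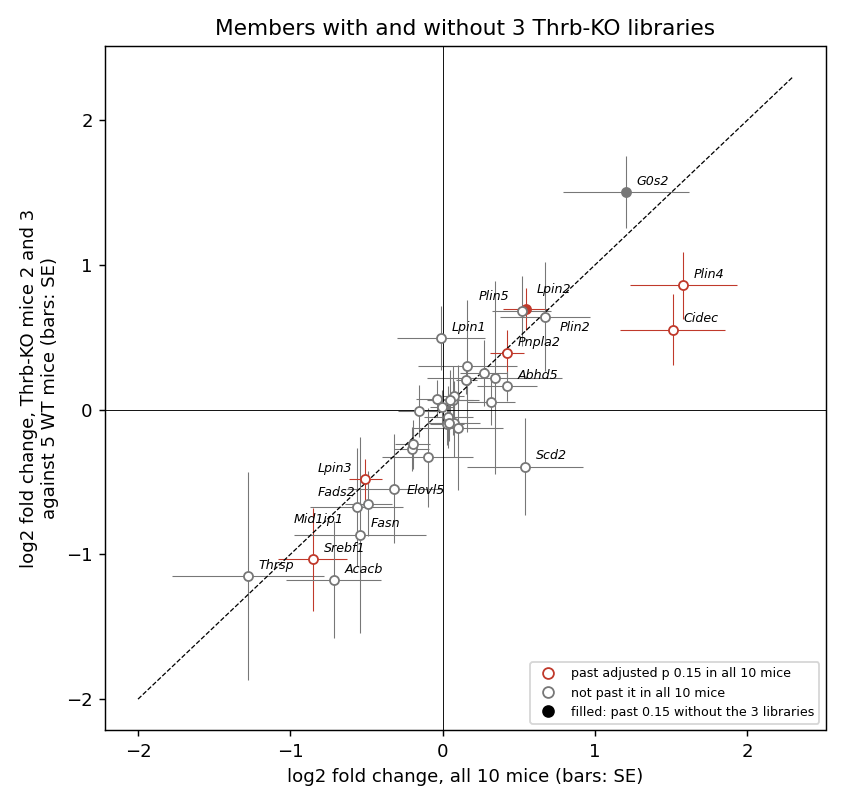
Log2 fold change with its standard error of each tested gene over all 10 mice (horizontal) and with Thrb-KO mice 2 and 3 against the 5 WT mice (vertical), with a dashed line where both are equal. Plin4 (1.58 and 0.86) and Cidec (1.51 and 0.55) lie well below the line, while G0s2 and Lpin2, the filled points, lie above it.

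Genes next to these in the pathways were read from lists of lipid synthesis, esterification, storage, regulation, steatosis, feeding and thyroid hormone targets. Of 102 such genes 90 were tested, and the median log2 fold change was 0.08. At an adjusted p of 0.15, 7 rose and 2 fell, where 1.51% of all tested genes rose and 2.57% fell. These lists too were chosen with earlier results of these data known. Me1, the malic enzyme that supplies NADPH for lipogenesis and is a known thyroid hormone target, rose by 0.79 on the log2 scale (SE 0.19, adjusted p = 0.065), from 140 to 275 CPM in WT to 240 to 450 CPM in Thrb-KO mice. Acsl1, which activates fatty acids to acyl-CoA, rose by 0.75 (SE 0.16, adjusted p = 0.035), from 505 to 855 CPM to 798 to 1218 CPM. Storage and lipolysis genes that rose were Hsd17b11, a droplet protein (0.49, adjusted p = 0.063), Lipc, hepatic lipase (0.41, adjusted p = 0.077), and Fitm2, which partitions triglyceride into droplets (0.44, adjusted p = 0.079). The remaining rises were those of Fabp4 (2.35, adjusted p = 0.079) and of Acot1, an acyl-CoA thioesterase induced by fasting (2.19, adjusted p = 0.083), and Fads3, a desaturase homologue, fell by 0.91 (adjusted p = 0.069). Reads of Acot1 that also match its near-identical paralogues were not counted. Acly, which makes cytosolic acetyl-CoA, had a log2 fold change of -0.03 (SE 0.21), and Pparg, the nuclear receptor that drives steatosis genes, of 0.11 (SE 0.28). Without Thrb-KO mice 1, 4 and 5, Dio1 kept its call and Cd36 gained one. Cd36 was lower, at 21.1 and 18.3 CPM in Thrb-KO mice 2 and 3 against 28.6 to 37.7 CPM in WT mice. The other 8 genes lost their calls. Their log2 fold changes were then 0.76 for Me1, 0.67 for Acsl1, 0.51 for Hsd17b11, 0.52 for Lipc, 0.45 for Fitm2, 0.54 for Fabp4, 2.53 for Acot1 and -0.86 for Fads3.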

How the data were processed

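RNA of mouse liver was sequenced as stranded mRNA libraries on a DNBSEQ instrument. Per the labels and the study's methods, the authors aligned reads to mm10 with HISAT2 2.2.1 and counted them per Ensembl gene with HTSeq 0.9.1 in union mode without strand, leaving out reads of several places or genes, and deposited raw counts. Reads shared by paralogues or overlapping genes are thus lost, and antisense reads are counted as sense. Their table of edgeR 3.36.0 results (fold changes, mean expression, F statistics and p-values) was not used.

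Library totals were 26477195 to 28590704 counts, which sets the counting error. Here the genes that reached 1 CPM in 5 or more libraries were scaled by TMM and tested with edgeR 4.0.16 in R 4.3.3 (robust quasi-likelihood F-test, Benjamini-Hochberg over all tested genes), at 0.15, the study's limit, and at 0.05. SEs were derived from each log2 fold change and its F statistic. The test was tried on simulated counts first. Alternatives were DESeq2 1.42.0, limma-voom with quality weights (limma 3.58.1), RLE factors, no filter, a block for the replicate number, a component of clock or of acute-phase genes, and each mouse left out, with 2 on adipocyte markers added after the data were seen. Per-mouse values are given for every gene past 0.15 and for a fixed list of central lipogenic and droplet genes, the rest by mean and SD. Neighbouring genes are named when past 0.15, and Acly, Me1, Pparg and Dio1 in any case, and 1 further gene of that rule is not reported here. The 40 genes and all lists were chosen with earlier results of these data known. Exon lengths and overlaps come from GENCODE on GRCm38, another release than the one counted, where 260 of 55401 identifiers had no symbol.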

Additional observations from a re-analysis of the deposited data

Results flagged for a closer look

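In groups of 5 mice, a level was marked when its gap to the nearest other mouse exceeded 0.71 of the range of its group (Dixon's 95% limit). Of 82 groups, 40 genes and Thrb in 2 genotypes, 8 were marked, where chance gives about 1 in 20, or 4.1. All 8 were in WT mice, and 6 of them were in WT mouse 5. This mouse had 1900 CPM of Thrsp against 381 to 551 in the other WT mice, 3770 CPM of Fasn against 821 to 1300, 338 CPM of Acss2 against 153 to 167, 989 CPM of Dgat2 against 668 to 744, 256 CPM of Tecr against 204 to 214, and 8.42 CPM of Pnpla3 against 0.492 to 1.71. Insig1, a target of SREBP that is not among the 40 genes and was picked after its values were seen, was 939 CPM in WT mouse 5 and 228 to 329 CPM in the other WT mice. Of further genes picked in the same way, the clock genes Per1 and Per3 were 67.8 and 75 CPM in WT mouse 5 against 23.3 to 38.1 and 37.1 to 42.9 CPM in the other WT mice, Nr1d1 was 36.9 against 92.8 to 106 CPM, and the Kupffer cell marker Marco was 62.3 against 2.54 to 13.0 CPM. The part of these differences in the levels of the 40 genes was not tested.

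Hacd3 in WT mouse 4 was 228 CPM against 184 to 190 CPM in the other WT mice. Cidea in WT mouse 2 was 0.21 CPM, 6 counts, against 0.0357 to 0.0391 CPM, 1 count each.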

How the results depend on the processing

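The count of 6 genes past an adjusted p of 0.15 was 6 with RLE factors, 5 with no filter, 8 with the clock component, 7 with limma-voom, 10 with DESeq2, 0 with the acute-phase component, 0 with the adipocyte marker level as covariate and 2 without Thrb-KO mice 1, 4 and 5. At 0.05 the count of 1 became 6, 2, 0, 0 and 0 with DESeq2, the clock component, the acute-phase component, the adipocyte covariate and those libraries left out. Over all genes, the 499 past 0.15 were 885 under DESeq2, 849 under limma-voom, 9 with the acute-phase component, 133 with the adipocyte covariate and 173 without the 3 libraries, and the 165 past 0.05 became 502, 291, 4, 18 and 21 in that order and 294 with no filter. Of the neighbouring genes, 9 passed, and 14, 1, 1 and 2 with DESeq2, the acute-phase component, the adipocyte covariate and the 3 libraries left out. Thrb, at -0.32, lost its call at -0.35 with the acute-phase component (adjusted p = 0.9997), -0.31 with the adipocyte covariate (adjusted p = 0.24) and -0.30 without the 3 libraries. The acute-phase component lay higher in every Thrb-KO mouse than in every WT mouse, so its fit cannot tell it apart from genotype. Beyond this and the fewer mice of the last setting, the cause of these changes was not tested.

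Leaving out 1 mouse at a time gave 1 to 7 of the genes past 0.15 (1 without WT mouse 2), 0 to 2 past 0.05, 222 to 665 of all genes past 0.15 and 75 to 185 past 0.05, and 3 to 11 neighbouring genes. Of the 6 called genes, Lpin3 kept its call in 16 of 19 alternatives, Plin4 in 14, Cidec in 13, Srebf1 and Pnpla2 in 11 and Lpin2 in 10, and none changed direction. The median over the 38 genes stayed within 0.12, the SD between mice, of its value in all 19.

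Of the 38 genes, 21 kept their direction in every alternative and 17, none of them called, changed it in some. With mice left out singly the log2 fold change ranged from -0.075 to 0.13 for Mlxipl, -0.29 to 0.20 for Acss2, -0.014 to 0.19 for Acaca, -0.73 to 0.066 for Fasn, -0.026 to 0.11 for Elovl1, -0.10 to 0.22 for Elovl3, -0.0058 to 0.43 for Elovl6, -0.024 to 0.059 for Hacd3, -0.35 to 0.13 for Lpin1, -1.41 to 0.20 for Pnpla3, -0.030 to 0.15 for Mgll and -0.12 to 0.079 for Cideb. With the acute-phase component it was -0.16 for Mlxipl, 0.61 for Acss2, -0.26 for Acaca, -0.091 for Elovl1, -0.051 for Elovl2, -0.076 for Elovl3, 0.0099 for Hacd3, 0.090 for Agpat2, 0.48 for Lpin1, 0.053 for Dgat2, 0.27 for Pnpla3 and -0.54 for Mgll. With the adipocyte covariate it was -0.068 for Acaca, -0.17 for Scd2, -0.087 for Elovl1, -0.072 for Elovl3, -0.060 for Tecr and 0.41 for Lpin1. Without Thrb-KO mice 1, 4 and 5 it was -0.052 for Mlxipl, -0.092 for Acaca, -0.39 for Scd2, -0.096 for Elovl1, -0.12 for Elovl3, -0.092 for Tecr, 0.017 for Hacd3, 0.49 for Lpin1 and 0.077 for Cideb. Hacd3 was 0.0026 with RLE factors, 0.0014 in the fit with the replicate block, 0.0071 with the clock component and 0.0027 with DESeq2.

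Shared replicate numbers marked no pairing of the mice, as the deviations of mice with the same number correlated between -0.20 and 0.009. With the replicate block 8 of the 38 genes passed 0.15 (Cidec, Plin4, Plin5, Srebf1, Thrsp, Pnpla2, Lpin3 and Acacb, without Lpin2), 1 passed 0.05, 348 of all genes and 8 neighbouring genes passed 0.15, and Thrb was -0.32. At this depth the genes are well counted except Cidea, Mogat1 and Pnpla3, and the spread between 5 mice limits the rest.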

Other observations

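The 40 genes took 1.16% to 3.04% of all counts of a library, and Scd1 alone took 0.416% to 2.14%. The median within-genotype SD between mice of the 38 tested genes was 0.33 on the log2 scale against 0.19 over all tested genes. Pnpla3 (1.38), Scd1 (0.84), Thrsp (0.80) and G0s2 (0.79) were the most variable, and Agpat3 (0.06) and Dgat1 (0.08) the least.

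Of 15 tested genes that respond to feeding and fasting and are not among the 40, 13 had higher fitted levels in Thrb-KO mice, where 6130 of all 12234 tested genes did, 7 had an unadjusted p under 0.05 in edgeR, where 13.6% of all tested genes did, and 1, Acot1, passed an adjusted p of 0.15, with a median log2 fold change of 0.56 over the list. The hour of collection and the fed state of these mice are not given in the sources used here, and 0 of 15 tested clock genes passed an adjusted p of 0.15 in edgeR, 1 with an unadjusted p under 0.05.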
